A study of Mus musculus with 8 samples.

Results

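Of the 581 peaks in the 4 deposited ChIP-seq peak lists, 257 had their summit inside an autosomal protein-coding gene or within 1 kb of either end of one. These 257 peaks were taken by position alone, against the RefSeq gene table of the mm10 build (GRCm38.p6), and the height of a peak had no part in the choice. The lists came from mouse embryonic fibroblasts (MEFs), connective tissue cells grown from C57BL/6 embryos at 14.5 days post coitum, that were wild type or knockout for Peg3. The labels give neither the Peg3 allele of the knockout nor the number of embryos behind each library. In each genotype, 1 library was made with an antibody against PEG3 and 1 with an antibody against H3K9me3, and the input listed for both antibodies of a genotype is the same raw data. Since each group is a single library, the genotypes cannot be compared against replicate error, and no test was made. Intervals are at the 95% level. Those of a single peak's fragments or ratio hold for counting error alone. Those of shares and medians take peaks as independent, although many lie together in 1 gene. None covers replicate error.

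Peg3 is a paternally expressed imprinted gene whose product carries Krüppel-type zinc fingers and binds DNA. H3K9me3, the trimethylated lysine 9 of histone H3, is a mark of silent chromatin that is laid down over repeats and over many zinc finger and other tandemly repeated gene families. The start of an active gene is normally free of H3K9me3 and rich in bound factors, so peaks of the antibodies can be read against the ends and the bodies of genes separately.

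To show what the PEG3-antibody peaks at gene starts cover, 3 of the stretches before a start are printed first. Each is printed 5′ to 3′ in the sense of the transcript, from RefSeq (GRCm38.p6), with the bases under the peak in capitals. Gpx8 (chr13:113046431-113046638, minus strand) and Wwc2 (chr8:47990545-47990794, minus strand) had a PEG3-antibody peak in both genotypes, and their capitals mark bases under both peaks. Efna4 (chr3:89338029-89338278, minus strand) had a peak in wild type alone.
Gpx8: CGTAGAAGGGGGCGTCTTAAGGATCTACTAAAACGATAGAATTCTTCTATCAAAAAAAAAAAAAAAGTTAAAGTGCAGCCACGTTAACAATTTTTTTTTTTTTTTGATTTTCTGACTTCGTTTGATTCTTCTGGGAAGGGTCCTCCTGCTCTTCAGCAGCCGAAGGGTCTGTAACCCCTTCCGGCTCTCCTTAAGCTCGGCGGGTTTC
Wwc2: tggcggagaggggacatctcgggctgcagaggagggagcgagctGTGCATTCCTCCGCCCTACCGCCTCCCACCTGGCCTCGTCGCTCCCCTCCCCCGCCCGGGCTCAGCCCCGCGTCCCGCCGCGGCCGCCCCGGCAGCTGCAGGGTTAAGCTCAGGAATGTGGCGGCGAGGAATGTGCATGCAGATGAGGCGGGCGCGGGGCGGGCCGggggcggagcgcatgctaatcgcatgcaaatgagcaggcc
Efna4: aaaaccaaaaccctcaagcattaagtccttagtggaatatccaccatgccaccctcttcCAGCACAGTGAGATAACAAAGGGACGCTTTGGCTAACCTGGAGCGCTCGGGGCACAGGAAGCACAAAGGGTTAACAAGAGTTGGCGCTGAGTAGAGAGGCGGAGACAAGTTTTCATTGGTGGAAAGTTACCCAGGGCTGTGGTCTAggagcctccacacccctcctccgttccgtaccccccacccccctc

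The Wwc2 and Efna4 stretches share the 7 bases GGGTTAA, which were noticed in the printed stretches and then looked for on both strands in every 300-base window around a listed gene start (250 bases before the start and 50 after it). Wild-type PEG3 peaks overlapped 25 such windows of 20 genes. The word stood in 11 of the 25 windows, or 44%, and in 9 of the 20 genes, or 45%. Among all 20084 windows of autosomal protein-coding genes, 463 held it, or 2.31%, and among the 8484 that were CpG-rich (at least 55% G and C and an observed over expected CpG ratio of at least 0.6), 1.93%. By gene, it was held by 2.66% of the 16456 genes with a window and by 2.04% of those with a CpG-rich one. Words of 7 bases that occurred in at least 4 of the 20 genes numbered 300. They were ranked by their share of the 20 genes over their share of all windows, and GGGTTAA had the highest ratio. The next words in rank, GGGGTTA and AGGGTTA, occurred in 5 genes each and overlap it. Because the word was noticed under these peaks and picked for its excess in these windows, its share there and its place within the peaks follow in part from that choice. They are descriptions, with no test, and no evidence of binding.

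The distance from match to summit differed between genes. It was 2 to 20 bp at Tob2, Abl1, Efna4, Zfp629 and Wwc2, 66 and 72 bp at Spsb2 and Fam214b, and 110 and 113 bp at Znrf1. Sephs1 held the word under each of its 2 peaks, and Znrf1 held it on both strands, as GGGTTAACCC. All 11 matches of the 9 genes, with Znrf1 counted once per strand, lay inside the wild-type peak. Peaks covered 50.2% of the bases of the overlapped windows. The distance from match to summit ran from 2 to 113 bp with a median of 20. Of the 11, 7 lay within 50 bp of the summit. In the knockout list, 3 of the 6 genes with an overlapped window held the word, namely Zfp629, Wwc2 and Sephs1, at 16 to 20 bp from the summit. The word was as common where the knockout list had no peak in or beside the gene (6 of 13 genes) as where it had one (3 of 7 genes). The matches are printed on the strand that reads GGGTTAA, with the word in capitals and 10 bases on each side. The stretches of the first 7 genes lie under a gene-end peak, and those of Abl1 and Fam214b under a deeper peak before an inner start of the gene. The second Sephs1 match, also under a deeper peak, is not printed.
Zfp629 (chr7:127615307-127615333, minus strand): gggaggcaaaGGGTTAAatcccataga
Wwc2 (chr8:47990634-47990660, minus strand): ggcagctgcaGGGTTAAgctcaggaat
Sephs1 (chr2:4882150-4882176, plus strand): ggccacgcagGGGTTAAtcttttcgcc
Znrf1 (chr8:111536421-111536447, plus strand): ggccgcgaagGGGTTAAcccggcgggg
Spsb2 (chr6:124808825-124808851, plus strand): ggtgacgataGGGTTAAtcgtccacag
Efna4 (chr3:89338136-89338162, minus strand): gaagcacaaaGGGTTAAcaagagttgg
Tob2 (chr15:81858392-81858418, minus strand): gggctgcgagGGGTTAAagatgccaag
Abl1 (chr2:31759868-31759894, plus strand): ggcctggaagGGGTTAAgggacggctg
Fam214b (chr4:43040508-43040534, minus strand): gacagaaaaaGGGTTAAggaggtgggc

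Other features of the overlapped windows were nearer to those of all windows. Their median content of G and C was 61%, against 57% over all windows, and their median observed over expected CpG ratio was 0.759 against 0.586. CpG-rich windows made up 64% of the 25 against 42.2% of all. The GC box GGGCGG stood in 56% against 47% of all windows, the CCAAT box CCAAT in 28% against 38.1%, the E-box CACGTG in 4% against 7.89%, and the TATA box TATAAA in 0 of 25 against 12.7%, each searched on both strands. None of these words contains GGGTTAA or lies within it. A match of letters does not show that a factor binds.

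The targeted gene was looked at first among the peaks. Peg3 (chromosome 7, 6703892 to 6730462, minus strand) carried 13 wild-type PEG3 peaks of 11 to 58 fragments and 19 knockout ones of 9 to 61, and a peak list does not check whether the protein is lost. Kept tags were 21396407 and 16986250 in the wild-type and knockout PEG3 libraries, 26295696 and 27289192 in the H3K9me3 libraries and 24305045 and 26470256 in the inputs. The caller kept 1 tag per position, so the number of fragments over a base has a ceiling. Peaks at or above 80% of it numbered 2 in knockout PEG3 (Wls and Chl1) and 1 in wild-type H3K9me3 (in Tmem267) among the peaks in or beside genes, and 45 among the other autosomal knockout PEG3 peaks.

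The share of peaks in or beside a protein-coding gene was highest for wild-type PEG3. It was 100 of 147 autosomal peaks there, or 68% (59.8% to 75.5%), 69 of 159 for knockout PEG3, or 43.4% (35.6% to 51.5%), 58 of 156 for wild-type H3K9me3, or 37.2% (29.6% to 45.3%), and 30 of 88 for knockout H3K9me3, or 34.1% (24.3% to 45%). The genes with 1 kb on each side cover 41.3% of the autosomal span, and the zones within 1 kb of a gene end cover 3.02%. In the knockout PEG3 list without the peaks near the fragment ceiling, the share was 59.8%, and among peaks of at least 4-fold enrichment 67%. The wild-type PEG3 shares under the same filters were 68.5% and 72.5%. The difference between the genotypes thus moved with the ceiling peaks, and its cause was not tested. At least 1 such peak was found for 90 of 20554 autosomal protein-coding genes in wild-type PEG3 (0.438%), 48 in knockout PEG3 (0.234%), 28 in wild-type H3K9me3 (0.136%) and 14 in knockout H3K9me3 (0.0681%), and for 130 genes over the 4 lists. Each peak is named below for 1 gene, the one whose end is nearest or, away from ends, one that contains it. Predicted genes came after others, and among genes that contain the same deeper peak the first by alphabet was taken. This gives 119 genes, 110 of them with other than a predicted-gene name.

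Gene ends, the zone within 1 kb, held 41 of the 100 wild-type PEG3 peaks, or 41% (31.3% to 51.3%). In the knockout PEG3 list it was 18 of 69, or 26.1% (16.3% to 38.1%). They held 14 of the 58 wild-type H3K9me3 peaks, or 24.1% (13.9% to 37.2%), and 2 of the 30 knockout H3K9me3 peaks, or 6.67% (0.818% to 22.1%). With 1 peak per gene the shares were 46.3%, 35.6%, 19.2% and 0 of 14 in the same order. Zones within 1 kb of a gene end make up 7.32% of the sequence in or beside genes. The knockout H3K9me3 share of 6.67% was near that value. The farthest peak counted as a gene end in wild-type PEG3 lay 989 bp from the end of Chd3, and the nearest one counted as deeper lay 1091 bp inside Ephb6. The nearest peak left out lay 1261 bp from Cd248. The wild-type H3K9me3 share rested on the width of the zone and on predicted genes, being 7.41% with 500 bp, 41% with 2 kb and 11.4% without predicted genes.

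**Figure D1:**
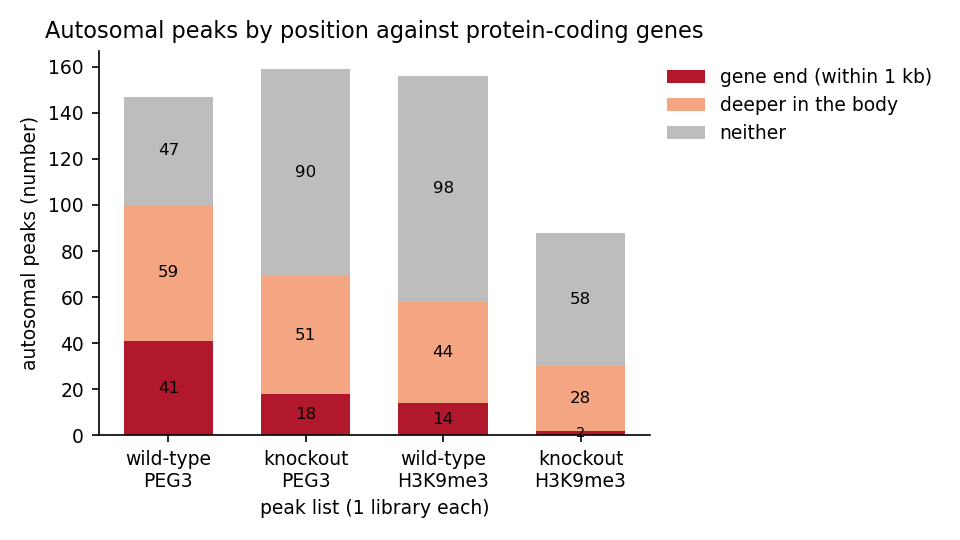
Number of autosomal peaks (y axis) in each of the 4 lists (x axis, 1 library each), stacked by position: within 1 kb of a protein-coding gene end, deeper in a gene body, or neither. Wild-type PEG3 has 41 gene-end peaks and 47 peaks in neither place, and knockout H3K9me3 has 2 and 58.

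The gene-end peaks of the PEG3 antibody lay at starts of genes. A strand was listed for the genes of 30 of the 41 wild-type peaks, and all 30 were nearer the start of the gene than its finish (30 of 30, 88.4% to 100%). In the knockout list it was 14 of 16, or 87.5% (61.7% to 98.4%), and the exceptions were the peak 688 bp inside the finish of Lars2 and that 910 bp beyond the finish of Wls, with folds of 2.62 and 1.97. Against the outer end of the gene, summits fell 15 upstream and 15 downstream in wild type and 7 and 7 in knockout, at a median distance of 294 bp and 470 bp. Against the nearest start listed in the RefSeq start table, which can lie further in or belong to another gene, 20 of the 30 wild-type gene-end peaks within 1 kb of such a start were upstream of it, and 10 of 15 knockout ones. The side of Sephs1, Zfp629, Spsb2, Rin1 and the 6.57-fold peak of Tbl1xr1 depends on this choice. All 6 wild-type H3K9me3 gene-end peaks with a strand also lay at starts, 4 of them at Duxf3. Deeper in gene bodies, 5 wild-type PEG3 peaks (in Sephs1, Abl1, Fam214b, Ephb6 and Zfp629) lay within 1 kb of another listed start, and 0 of the knockout ones did.

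**Figure D2:**
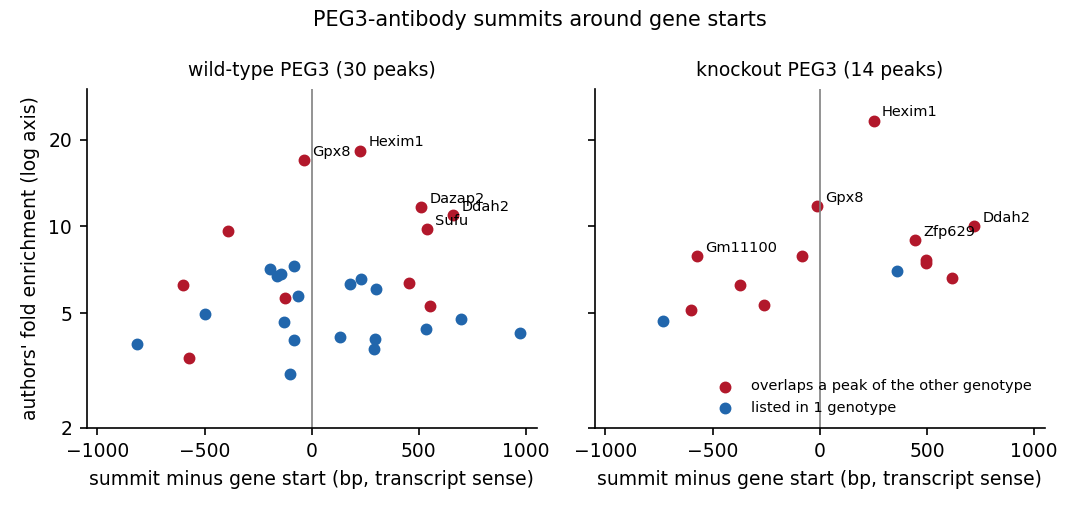
Authors' fold enrichment (y axis, log scale) against the distance of the summit from the gene start in bp (x axis, negative upstream), for the 30 wild-type and 14 knockout PEG3 gene-end peaks that lie at a start. Red points overlap a peak of the other genotype and blue points do not, and Hexim1 and Gpx8 are the highest in both panels.

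Hexim1, which encodes an inhibitor of the kinase that releases paused RNA polymerase II, had the gene-end peak of highest fold in both genotypes. In wild type it held 98 fragments over the summit (18.3-fold over the local input, chr11:103116333-103117381) and in knockout 50 fragments (23.3-fold, chr11:103116334-103117377), 226 and 252 bp inside the gene. Gpx8, an endoplasmic reticulum member of the glutathione peroxidase family, held 91 fragments (17-fold) in wild type and 37 (11.8-fold) in knockout, 38 and 13 bp before its start. In wild type these 2 genes stood above all other gene ends by fold and by fragments, and the next by fragments was Ddah2 with 58. In knockout the peaks of Wls and Lars2 held more fragments, at low fold.

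Regulatory genes among the gene ends listed in both genotypes were Sufu, Prdm11 and Zfp629. Sufu, the negative regulator of the Hedgehog pathway, held 32 fragments in wild type (9.76-fold) and 16 in knockout (7.44-fold). Prdm11, a gene of the PR-domain family, held 34 fragments (9.61-fold) in wild type and 18 (5.33-fold) in knockout. Zfp629, a zinc finger gene, held 20 fragments (6.39-fold) and 16 (8.95-fold). On a list of zinc finger genes by symbol, which holds 2.25% of all genes, Zfp629 was the 1 among the 90 wild-type genes, or 1.11%. That list leaves out zinc finger genes with other symbols, such as Peg3 and Hivep1. It is thus no count of all zinc finger genes.

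The other gene ends listed in both genotypes belonged to enzymes and adaptors. Ddah2, a gene of the dimethylarginine dimethylaminohydrolase family, held 58 fragments (10.9-fold) in wild type and 23 (10-fold) in knockout. Dazap2, a small proline-rich adaptor, held 49 (11.6-fold) and 36 (7.63-fold). Sephs1, a selenophosphate synthetase homologue, held 23 (5.31-fold) and 12 (6.64-fold). Against the outer end of the gene, each of these 3 genes had the peak downstream of its start in both lists. The Sephs1 summits lay 113 bp (wild type) and 48 bp (knockout) upstream of a listed start further in. Plekhh3, a pleckstrin homology domain gene, held 44 (6.28-fold) and 16 (6.26-fold), Wwc2, of the KIBRA family, 28 (5.66-fold) and 17 (7.88-fold), and the predicted gene Gm11100 21 (3.5-fold) and 14 (7.9-fold). The last 3 had the peak upstream.

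Per kept tag, the shared gene-end peaks were lower in the knockout library. Of 12 wild-type gene-end peaks that overlapped a knockout peak, 11 were lower in knockout, with a median ratio of knockout over wild type of 0.662 (0.512 to 0.912, over peaks). For 4 of the 12 the interval lay wholly below 1, against 12.9% of all 62 shared PEG3 peaks, and for 0 of the 12 wholly above 1, against 16.1%. The 4 were Plekhh3 at 0.458 (0.241 to 0.828), Ddah2 at 0.5 (0.294 to 0.822), Gpx8 at 0.512 (0.34 to 0.758) and Hexim1 at 0.643 (0.448 to 0.912). Zfp629 was the exception at 1.008 (0.488 to 2.05), and the twelfth peak, in Mbd2, stood at 0.912 (0.494 to 1.66). The authors' folds gave another direction, with a median ratio of 1.12 and 6 of 12 lower in knockout, and the local input background per kept tag at these peaks had a median ratio of 0.447. What part the input has in this was not tested.

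**Figure D3:**
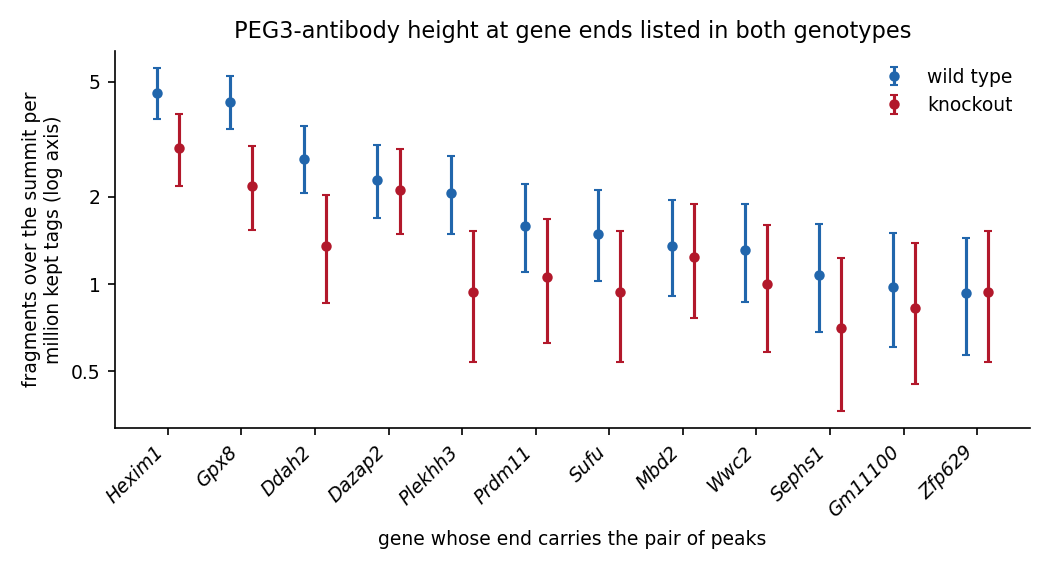
Fragments over the summit scaled to the kept tags of each library (y axis, log scale) at the 12 wild-type gene-end PEG3 peaks that overlap a knockout peak, by gene (x axis), with exact Poisson 95% intervals for counting error. The knockout point lies below the wild-type point for every gene but Zfp629, and the intervals of most pairs overlap.

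Deeper in gene bodies, 13 of 26 shared PEG3 peaks were lower in knockout per kept tag, with a median ratio of 0.99 (0.83 to 1.26). Without those in Peg3, 11 of 15 were lower, with a median of 0.83 (0.54 to 1.47). By the authors' folds, 9 of the 26 were lower and the median ratio was 1.20. The intervals of 2 of the 26 lay wholly below 1, against 12.9% of all 62 shared PEG3 peaks. Chd9, a chromodomain helicase gene, fell from 94 fragments to 27 (ratio 0.362, 0.227 to 0.56) and Zswim6 from 42 to 18 (0.54, 0.293 to 0.958). Intervals wholly above 1 were found for 4 of the 26, against 16.1% of the 62. Neither share was above that of all shared PEG3 peaks. Cdc27, which belongs to the anaphase-promoting complex, had 22 fragments in wild type and 33 in knockout (1.89, 1.07 to 3.4). Ano2, a calcium-activated chloride channel, had 41 and 58 (1.78, 1.17 to 2.73). Dpp9, a dipeptidyl peptidase, had 53 and 62 (1.47, 1.005 to 2.17). Cmss1 had 102 and 130 (1.61, 1.23 to 2.1), at low folds of 1.98 and 2.41.

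Most gene ends of the wild-type PEG3 list had no peak in the knockout list, while most of the knockout list had one in wild type. The overlaps took in 29.3% of the wild-type gene-end peaks (12 of 41, 16.1% to 45.5%) and 66.7% of the knockout ones (12 of 18, 41% to 86.7%). Deeper in the body they took in 44.1% in wild type (26 of 59, 31.2% to 57.6%) and 56.9% in knockout (29 of 51, 42.2% to 70.7%). Among the autosomal peaks away from genes, the shared part was 48.9% in wild type (23 of 47) and 25.6% in knockout (23 of 90). When each peak had to cover 50% of the other, the gene-end shares were 9.76% and 16.7%. The 29 gene-end peaks of wild type alone were low, with 15 to 35 fragments and a median of 20, against a median of 33 in the shared ones. Scaled to the depth of the knockout library (0.794), the lowest would hold 11.9 fragments, and the lowest listed knockout gene-end peak held 10. That count is no floor for the 29, because a call also depends on the local input. The median local background was 3.02 at the 29 and 1.37 at the knockout gene-end peaks. Only 1 of the 29, in Mbd2, had a knockout peak within 1000 bp. A site outside a list has no value in these files, so the knockout height at the others is not known.

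Several gene ends of wild type alone belonged to genes with a role in chromatin or transcription, a grouping made after the genes were seen. Pds5a, a cohesin regulator, held 25 fragments (7.14-fold), Tbl1xr1, a subunit of a nuclear receptor corepressor, 17 (6.57-fold), Mta3, of the NuRD complex, 17 (6.52-fold), Rsf1, a chromatin remodelling factor, 17 (5.8-fold), and Tcf12, a basic helix-loop-helix factor, 18 (6.3-fold). Below 5-fold stood the second peak of Mbd2, which binds methylated CpG, Epc1, a subunit of a histone acetyltransferase complex, Chd3, another NuRD subunit, and Lmo4, a LIM-only cofactor. A list of chromatin regulators by name, which holds only Chd3 of these, was counted over all PEG3 peaks in or beside genes. Of that list, 6 of the 90 wild-type genes were found (Chd3, Chd9, Kmt2d, Msl1, Prdm11 and Smarcc1), or 6.67%, against 0.837% of all genes, and 4 of the 48 knockout genes (Aebp2, Chd9, Msl1 and Prdm11), or 8.33%. The H3K9me3 lists held 0 of them. The list was drawn up with these results known, so the share is a count and no test, and it was no lower in knockout than in wild type.

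The other gene ends of wild type alone at 5-fold or more belonged to genes of varied function. Anks6, a ciliary protein gene, had the highest fold of them, 10.5, with 22 fragments. Brsk1, a kinase of neuronal polarity, held 15 (7.31-fold), Sfxn5, a mitochondrial sideroflexin, 30 (6.86-fold), Znrf1, a ubiquitin ligase, 26 (6.71-fold), and Plxdc2, a plexin-domain membrane protein, 16 (6.16-fold). Spsb2, a SOCS-box adaptor, held 20 (6.08-fold), Pdk2, a pyruvate dehydrogenase kinase, 35 (5.73-fold), Dera, a deoxyribose-phosphate aldolase, 19 (5.49-fold), and S1pr1, a sphingosine 1-phosphate receptor, 21 (5.47-fold). None of these 9 genes had a PEG3 peak in the knockout list. Under 5-fold lay Fbxl14, Rin1, Efna4, Cdk1, Ubxn7, Arl8b, Adam10, Tob2, Adgrl1 and Cep44, with 16 to 29 fragments.

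The knockout list had gene-end peaks of its own at 6 genes. Peg3 itself held 15 fragments (7.01-fold) 362 bp inside its start, Csmd3 12 (5.89-fold), Nhlrc2 17 (5.05-fold) and Hivep1, a large zinc finger gene, 10 (4.71-fold). Lars2, the mitochondrial leucyl-tRNA synthetase, held 106 fragments and Wls, the WNT secretion factor, 186, at folds of 2.62 and 1.97. The last pair thus had many fragments over a high input, while the first 4 had few over a low one.

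Some gene-end peaks lay within 1 kb of the ends of 2 genes. In wild-type PEG3 there were 4. The peak between Cep44 and Fbxo8, genes that point away from each other with 277 bp between them, held 21 fragments (3.07-fold), with its summit 99 bp from the start of Cep44 and 179 bp from that of Fbxo8. The Ddah2 peak also lay 976 bp from the finish of Clic1, which reads the same way, with 315 bp between the genes. The others were the Rin1 peak beside Brms1 and the Rsf1 peak beside Aamdc, with 86 and 312 bp between the genes. In knockout PEG3, 1 peak lay where Dclre1a and Nhlrc2 overlap by 35 bp, 27 and 7 bp from their ends, and 1 lay inside Peg3, 362 bp from its start and 459 bp from that of Usp29, a gene that points away from it with 96 bp between them. In wild-type H3K9me3 the 1 such peak lay between Duxf3 and Gm4981. Which of the 2 genes such a peak belongs to cannot be told apart from position.

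Deeper in gene bodies, the highest wild-type PEG3 peaks were largely those of the knockout list. The 10 highest by fold in wild type lay in Peg3 (58 fragments, 26.9-fold, and 2 more of 32 and 27 fragments), Ano2 (19.2-fold), Chd9 (17.3-fold), Topaz1, a germ cell gene (16.4-fold), Dpp9 (14.8-fold), Tnik, a kinase of the WNT pathway (10.6-fold), Cdc27 (10.1-fold) and Zswim6 (9.51-fold). All 10 overlapped a knockout peak. The 10 highest in knockout lay in Dpp9 (33.2-fold), Peg3 (32.6-fold, and 3 more), Ano2 (25.8-fold), Marchf1, a ubiquitin ligase (38 fragments, 20.5-fold), Cdc27 (16.3-fold), Topaz1 (14.7-fold) and Chd9 (11.7-fold). Of these, the peak in Marchf1 and 1 of those in Peg3 did not overlap a wild-type peak.

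The remaining genes with a deeper PEG3 peak covered receptors, adhesion, chromatin and metabolism. In both genotypes they were Anxa7, Aplp2, Msl1, Smo, Spaca6, Tcf7l2, Tmem267 and Usp29. Sephs1 and Zfp629 had a deeper wild-type peak beside that at the gene end, and the knockout peak of Mbd2 lay 1019 bp inside the gene. In wild type alone they included the receptors Il1r1, Rara, Npffr1 and Ephb6, the chromatin genes Kmt2d, Mta2 and Smarcc1, the kinase and phosphatase genes Abl1, Ak5 and Ppp2r1b, and the adhesion and matrix genes Nectin1 and Hapln1. Pam, Dlgap2, Mpp2, Fam214b, Sh3bgrl2, Cenpp, Plcb4, Smug1, Agpat4, Bbc3, Pdlim5, Elk3, Speer4c and Sos2 completed that list. In knockout alone they were Aebp2 with 3 peaks, Kcnip1, Lrrc4c, Mpp7, Gnb1l, Il31ra, Gphn, Duxf3, Cdk8 and Chl1. By gene, 29 genes had a PEG3 peak in both genotypes, 53 in wild type and not in knockout, and 16 in knockout and not in wild type.

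Genes that contain or adjoin such a peak without giving it its name were Aamdc, Brms1, Cdc20b, Clic1, Fbxo8, Filip1l, Ogn and Wnt5b in wild-type PEG3, and Cdc20b, Dclre1a and Filip1l in knockout PEG3. In wild-type H3K9me3 they were Gm4981 and Zfp991. A list of Hedgehog, WNT and TGF-beta genes held 3 of the 90 wild-type PEG3 genes (Smo, Sufu and Wnt5b), or 3.33%. Wnt5b counts only because it contains the Fbxl14 peak. The list held 2 of the 48 knockout PEG3 genes, or 4.17%, and 0.467% of all genes. Of the H3K9me3 genes it held Smo alone, or 3.57% in wild type and 7.14% in knockout. The list leaves out genes such as Wls and Tnik, named above for their WNT roles, and is thus no count of all such genes. This list too was drawn up with results known, so the shares are counts and no test. Olfactory and vomeronasal receptors, 7.06% of all genes, and solute carriers and pumps, 2.22%, had 0 members in any of the 4 lists.

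H3K9me3 peaks lay several to a gene in part of the list. The 58 wild-type peaks lay in 26 genes, 8 of them predicted, and the 30 knockout peaks in 14 genes. Tmem267 held 11 wild-type and 8 knockout peaks, of 44 to 183 and 41 to 99 fragments. Duxf3, a double homeobox gene of a tandem array, held 6 and 2, the predicted gene LOC100504180 beside it 5 and 3, and Sfi1, a centrin-binding protein gene, 3 and 4. Reads of near-identical copies can be placed at either copy, so the counts at Duxf3, LOC100504180, Sfi1, Speer4c, Speer4d and Zfp978 are uncertain.

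**Figure D4:**
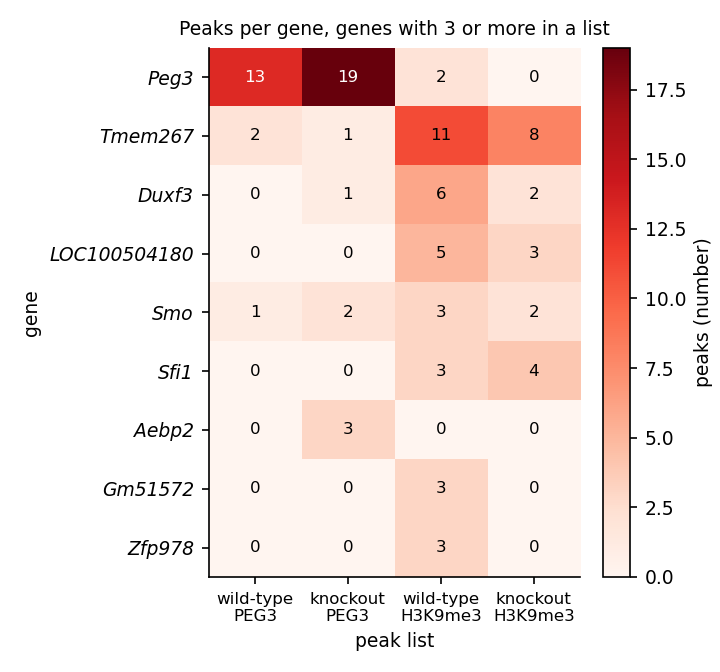
Number of peaks in or beside each gene (rows, genes with 3 or more in at least 1 list) in each of the 4 lists (columns), printed in the cell and shown by colour. Peg3 holds 13 and 19 PEG3 peaks, and Tmem267 holds 11 and 8 H3K9me3 peaks.

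The 10 highest H3K9me3 peaks by fold in wild type lay in Dlgap2, a synaptic scaffold gene (57 fragments, 10.4-fold), the predicted gene Gm525 (30, 9.58-fold), Lrrk2, a kinase gene (22, 9.44-fold), Smo, which transduces the Hedgehog signal (37, 8.78-fold, and 78, 8.12-fold), Mogat1, an acyltransferase gene (32, 7.64-fold), Duxf3 at 3 places (7.53-fold, 7.27-fold and 6.91-fold) and Tmem267 (89, 6.94-fold). In knockout they lay in Dpp9 (23 fragments, 9.76-fold), Sos2, a RAS exchange factor (57, 6.25-fold), Dlgap2 (55, 6.04-fold, and 54, 5.34-fold), Tusc3 (19, 5.8-fold), Smo (51, 5.61-fold, and 56, 4.61-fold), Srsf4, a splicing factor (29, 4.85-fold), Duxf3 (34, 4.61-fold) and Tmem267 (51, 4.59-fold). Genes listed in both genotypes numbered 12, these being Dlgap2, Dpp9, Duxf3, Gm525, LOC100504180, Mogat1, Ranbp3l, Sfi1, Smo, Sos2, Tmem267 and Tusc3. In wild type and not in knockout there were 14, among them Ahnak2, Cdk14, Dnah14, Lrrk2, Peg3, Speer4d and Zfp978, with 6 predicted genes. In knockout and not in wild type there were Mdga2 and Srsf4.

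Shared H3K9me3 peaks in or beside genes had a median ratio of knockout over wild type of 0.881 per kept tag (0.78 to 1.008, 22 peaks). Intervals lay wholly below 1 for 2 of the 22, 1 in Tmem267 (89 and 60 fragments, 0.65) and 1 in Smo (78 and 51, 0.63), against 10.6% of all 66 shared H3K9me3 peaks. None lay wholly above 1, against 6.06% of the 66.

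Among gene-end peaks 0 overlapped a peak of the other antibody in the same genotype, in any of the 4 lists. Deeper in the body 7 of 59 wild-type PEG3, 4 of 51 knockout PEG3, 8 of 44 wild-type H3K9me3 and 4 of 28 knockout H3K9me3 peaks did. Away from genes it was 15 of 47, 16 of 90, 14 of 98 and 14 of 58 autosomal peaks in the same order, so such overlap was no trait of gene bodies. By gene, Dpp9, Smo and Tmem267 were in all 4 lists, and Dlgap2, Duxf3, Peg3 and Sos2 were listed for both antibodies in at least 1 genotype each. No gene had a gene-end peak for both antibodies.

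Peaks in or beside genes were narrow, and the widest were PEG3 peaks. The median width was 185 bp in wild-type PEG3, 171 bp in knockout PEG3, 145.5 bp in wild-type H3K9me3 and 146.5 bp in knockout H3K9me3. No peak can be narrower than the fragment length of its library, 97 to 104 bp. Wild-type PEG3 gene-end peaks had a median of 204 bp (155 to 329), deeper ones 176 bp (144 to 220) and the other autosomal peaks 137 bp (125 to 188). At gene ends the 12 shared peaks were wider, with a median of 491 bp (297 to 655), than the 29 of wild type alone, with 159 bp (125 to 243). Of the 12 pairs, 10 were wider in wild type, where the library was the deeper one.

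The 5 widest wild-type PEG3 peaks lay in Peg3 (4250 bp), Topaz1 (2295 bp), at the start of Pdk2 (1287 bp), at the start of Hexim1 (1049 bp) and in Msl1, a subunit of a histone acetyltransferase complex (1047 bp). In knockout the order was Peg3 (4339 bp), Topaz1 (2354 bp), Hexim1 (1044 bp), Peg3 again (652 bp) and Chd9 (632 bp). The Hexim1 peak thus had nearly the same width in both lists, while that of Pdk2 was listed in wild type alone. The 5 widest H3K9me3 peaks in wild type lay in Sfi1 (1002 bp), Tmem267 (516 and 463 bp), Peg3 (427 bp) and Duxf3 (368 bp). In knockout they lay in Tmem267 (407, 346 and 342 bp), Smo (365 bp) and Sfi1 (342 bp).

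**Figure D5:**
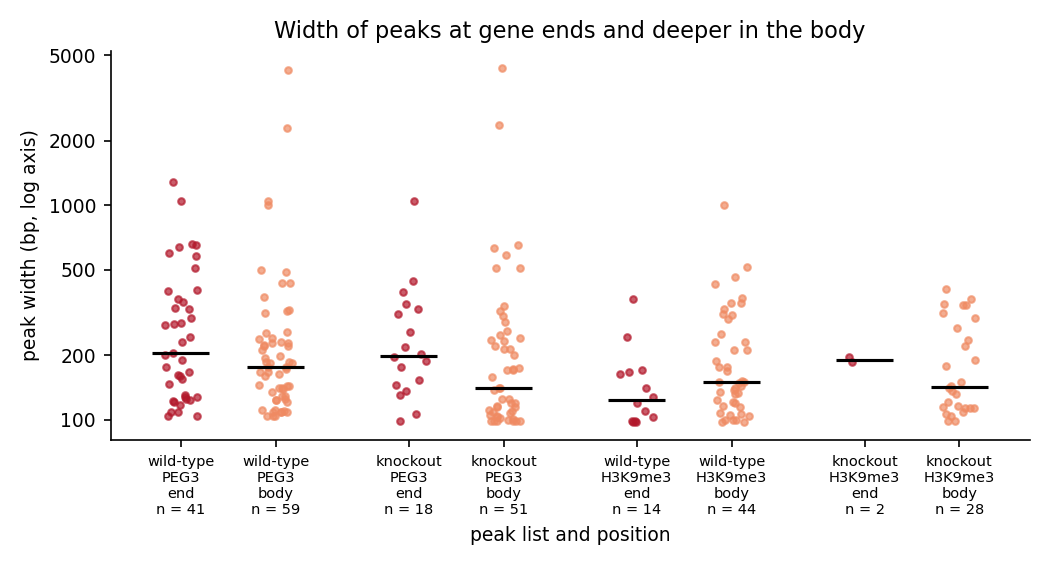
Peak width in bp (y axis, log scale) for each list and position (x axis), 1 point per peak with the median as a black line. The widest points are the Peg3 peaks of 4250 and 4339 bp, and the 41 wild-type PEG3 gene-end peaks have a median of 204 bp.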

How the data were processed

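The peak lists of 4 ChIP libraries were analysed, each called against the input of its genotype. The submitters' processing notes name Bowtie2, SAMtools and the mm10 build, without versions of the tools. Per the file headers, the authors ran MACS2 2.2.6 on each library at a q threshold of 0.05 with 1 tag kept per position. In the deposited tables stand the pileup signal at the summit, the fold of that pileup over the local input (with 1 added to both), and −log10 p-values and −log10 q-values, the last pair under lost column names. Peak length is in bp. Fragments over the summit are the deposited pileup divided by the scale of the library, and the score arithmetic was checked for all 581 peaks (largest difference in −log10 p 0.00335).

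Members are peaks with the summit in an autosomal protein-coding gene of the RefSeq table (GRCm38.p6) or within 1 kb of an end. An end goes before a body, and 107 genes with scaffold coordinates were left out. Strand came from the RefSeq start sequences, matched by gene ID for 80.1% of genes. Exons were not used. Peaks were shared if they overlapped by 1 bp. Shares have Clopper-Pearson intervals, ratios exact conditional intervals and medians order-statistic intervals, none of which covers replicate error. All gene-end PEG3 peaks of at least 5-fold, the 10 highest deeper PEG3 and the 10 highest H3K9me3 peaks per list, gene ends listed in both genotypes and the 5 widest peaks per list were named with values, and other genes by name. The members, gene lists and rules were chosen with earlier results of these data known. Functions were tested on simulated peaks. Alternatives are listed in the closing section. The scripts used SciPy 1.17.1 for intervals, pandas 2.3.3 and NumPy 2.4.6 for tables and matplotlib 3.10.9 for figures, under Python 3.11.15.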

Additional observations from a re-analysis of the deposited data

How the results depend on the processing

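No paired analysis was possible because each group is 1 library. Of 125 alternative values over 25 results, 102 stayed near the main value, 22 moved further and 1 turned direction. Near means inside the interval of the main value. Counts of genes have no interval and were held to a set fold limit instead. The cause was not tested for any of these moves. Counting 1 peak per gene and counting peaks within 5000 bp as 1 were chosen after seeing the data. The share in or beside genes in knockout PEG3 was 67% at a fold of at least 4, 59.8% without peaks near the ceiling and 52.3% with peaks within 5000 bp counted as 1, and in wild-type H3K9me3 28.2% without predicted genes. With a zone of 500 bp the gene-end share was 27.8% in wild-type PEG3 and 7.41% in wild-type H3K9me3, and with 2 kb it was 52.9%, 38.6% in knockout PEG3 and 41% in wild-type H3K9me3. It was 11.4% in wild-type H3K9me3 without predicted genes, and 0 in knockout H3K9me3 both at a fold of at least 4 and with 1 peak per gene. With 50% reciprocal overlap the shared part of PEG3 peaks was 9.76% (gene end) and 28.8% (deeper) in wild type and 16.7% and 35.3% in knockout. Within 1000 bp it was 72.5% for deeper knockout PEG3 and 65.9% for deeper wild-type H3K9me3 peaks. By same gene it was 74.5% for deeper knockout PEG3, 57.1% and 68.2% for gene-end and deeper wild-type H3K9me3, and 92.9% for deeper knockout H3K9me3 peaks. The median ratio of 0.662 at shared gene ends became 1.12 with the authors' folds. Whether depth sets which gene ends are listed in wild type alone was not tested. Scaled to the knockout library, 0 of the 29 fell below the lowest knockout gene-end peak. That peak is no floor for them, because a call also depends on the local input.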
